A study of Homo sapiens with 20 samples.

Results

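ZBTB genes encode proteins with a BTB domain at one end and Krüppel-type zinc fingers at the other. All rows of the count table named ZBTB followed by a number, with or without a letter, were taken except ZBTB48 itself, which gave 40 of 43366 genes. The cells were U2OS, a human osteosarcoma line, as 5 clones labelled WT and 5 clones labelled ZBTB48 Knockout (KO), each grown untreated or for 24 h with IFNγ at 250 U/ml, so that 20 polyA RNA-seq libraries formed 4 groups of 5. The clones of both labels share the U2OS background, no further allele or agent is given by the labels, and treated and untreated libraries carry the same clone names. The questions for these genes were how strongly each was expressed, whether any was higher or lower where its relative ZBTB48 had been targeted, and which responded to IFNγ.

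The BTB domain lets these proteins pair with themselves or each other, and recruits co-repressors such as NCOR1 and BCOR or, in some members, the ubiquitin ligase scaffold CUL3. The zinc fingers read DNA. Many members are repressors of transcription that steer lymphocyte, germ cell or neuronal fates, and some bind methylated CpG. ZBTB48 binds the telomeric repeat TTAGGG, and ZBTB10 the telomeric variant repeat TTGGGG. IFNγ acts on GAS elements in promoters and, through the IRF factors it induces, on ISRE elements.

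ZBTB48 was checked first, in CPM, the read counts relative to the library total after scaling by the trimmed mean of M values (TMM). The 5 untreated WT clones lay between 8.05 and 9.19 CPM. The clones labelled KO stood at 1.27, 1.94, 11.3, 3.18 and 4.04 CPM for replicates 1 to 5, and after IFNγ at 1.70, 1.80, 16.0, 3.84 and 5.17 CPM. The library labelled KO replicate 3 was thus above every WT clone in both conditions, so its ZBTB48 mRNA goes against its label, although the count does not say whether a protein is made. The ZBTB48 target gene MTFP1 stood at 0.222 to 0.939 CPM in all 5 untreated clones labelled KO, replicate 3 included, against 27.1 to 52.1 CPM in WT clones (log2 fold change -6.0, edgeR adjusted p = 1.74e-05). VWA5A and PXMP2, also targets, were lower by the same test in both conditions, and SNX15 was listed at 0 in every library. The study, by contrast, describes a loss of SNX15 expression in its KO clones, and the reason for the 0 counts in WT clones was not tested. The fold change of ZBTB48 itself did not pass the test (-1.02 on the log2 scale, SE, the standard error, 0.482, edgeR adjusted p = 0.980).

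The libraries held 46652288 to 72952859 counts. Of 10 mesenchymal or osteoblast markers, 6 averaged over 1 CPM, with a summed level of 2923 to 10548 CPM, while COL1A2 averaged 0.267 CPM in untreated WT clones and the osteoblast genes SP7, IBSP and BGLAP lay near 0. Of 5 blood cell markers 0 averaged over 1 CPM, and their sum was 0.235 to 1.14 CPM. The epithelial markers EPCAM and CDH1 summed to 0.444 to 12.7 CPM, and EPCAM ranged over 0.238 to 3.42 CPM in untreated WT clones and 2.46 to 12.6 CPM in untreated clones labelled KO. Neither marker was called between the labels, and their part in the results was not tested.

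Most of the family was expressed in U2OS cells. Divided by the exon length in the count table (RPKM), 34 of 40 ZBTB genes averaged at least 1 RPKM over the 5 untreated WT clones, which is 85% of them against 29.3% of all rows of the table, where many non-coding genes are listed. The median over the 40 genes was 3.42 RPKM, below the 7.45 RPKM that is the median of all rows with at least 1 RPKM. All 40 genes together made up 1000.6 to 1180 CPM in untreated WT clones and 1052 to 1394 CPM after IFNγ. In clones labelled KO the sum was 1084 to 1164 CPM untreated and 1122 to 1248 CPM after IFNγ, so the ranges of all 4 groups overlapped. By clone name, however, the treated library had the higher sum in every clone under either label. The same held with treated KO replicates 4 and 5 exchanged, and the rise was not tested.

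ZBTB12 had the highest level per length, 13.5 ± 3.49 RPKM (SD, n = 5) in untreated WT clones. ZBTB22 followed with 11.3 ± 1.95 RPKM, and the 2 did not differ beyond their spread, since ZBTB12 ranged from 8.41 to 17.8 RPKM and ZBTB22 from 8.49 to 13.8 RPKM. Both lie in the MHC region of chromosome 6, ZBTB12 within 1915 bases of EHMT2 and ZBTB22 within 340 bases of TAPBP, a gene of MHC class I peptide loading. ZBTB12 also shares 7.2% of its exon length with the opposite-strand gene C2. Next came ZBTB4 with 9.63 ± 0.764 RPKM, which binds methylated CpG, and ZBTB17 (Miz-1), the partner through which MYC represses genes, with 9.51 ± 1.95 RPKM. ZBTB7B (ThPOK), which directs T cells to the CD4 lineage, stood at 8.43 ± 0.878 RPKM, and these levels again overlapped from neighbour to neighbour. The other 2 members that bind methylated CpG were ZBTB38 with 7.47 ± 1.83 RPKM and ZBTB33 (Kaiso) with 4.41 ± 0.473 RPKM, and ZBTB10 stood at 4.51 ± 0.786 RPKM.

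**Figure D1:**
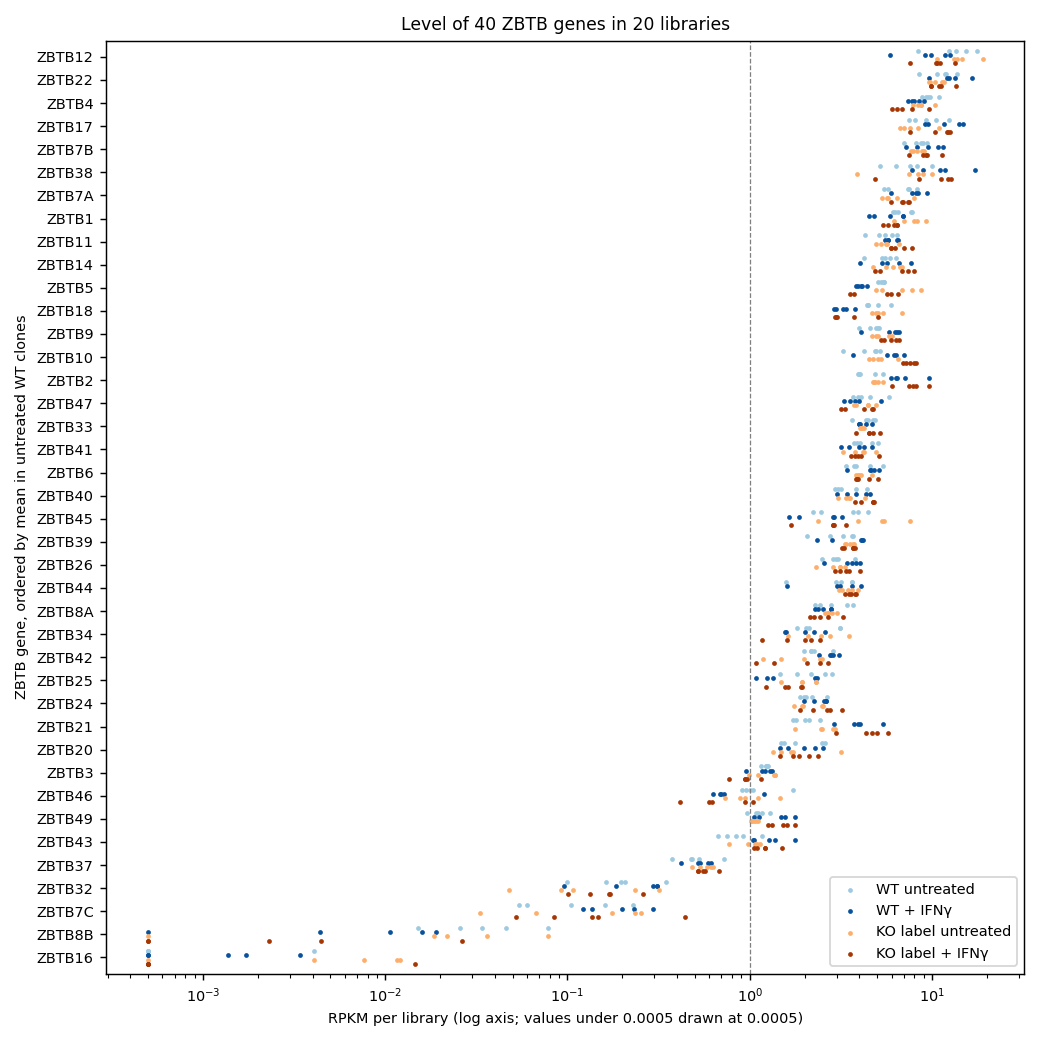
Level of each of the 40 ZBTB genes per library in RPKM on a log axis, with the 5 libraries of each of the 4 groups as points in 1 colour and the dashed line at 1 RPKM. Genes are ordered by their mean in untreated WT clones, from ZBTB12 at 13.5 RPKM down to ZBTB16, which is at or near 0 in every group.

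The remaining 6 genes stayed under 1 RPKM in untreated WT clones. ZBTB43 averaged 0.872 RPKM and ZBTB37 0.516 RPKM. ZBTB32, a repressor of activated lymphocytes, averaged 0.203 ± 0.0913 RPKM, and ZBTB7C 0.121 ± 0.0735 RPKM. ZBTB8B was at 0.0397 ± 0.0241 RPKM, from 11 to 63 counts per library. ZBTB16 (PLZF), known from natural killer T cells and from its fusion to RARA in promyelocytic leukaemia, had 0 counts in 4 untreated WT clones and 2 counts in replicate 3, and at most 8 counts in any library. It failed the filter on low counts in every comparison, and ZBTB8B failed it in IFNγ-treated clones labelled KO against WT, so that 39 or 38 of the 40 genes were tested.

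Clones of 1 label differed little for some members and much for others. The standard deviation of log2(CPM + 0.1) over the untreated WT clones was 0.0491 for ZBTB5 and 0.0498 for ZBTB3, but 0.496 for ZBTB44 and 0.802 for ZBTB7C. Over the untreated clones labelled KO the same value was 0.0280 for ZBTB33, 0.346 for ZBTB5 and 0.626 for ZBTB45. ZBTB5 held 30.2 to 32.8 CPM in untreated WT clones and 29.6, 46.3, 31.8, 40.8 and 52.0 CPM in the clones labelled KO, where it was thus spread more widely. These spreads are given as a description and were not compared by a test.

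No ZBTB gene was called between clones labelled KO and WT clones. In untreated cells 0 of 39 ZBTB genes had an edgeR adjusted p under 0.05 (background 0.0308% of all genes tested), 0 had an unadjusted p under 0.05 (background 4.79%), and DESeq2 also called 0. After IFNγ 0 of 38 were called (background 0.0206%), 1 had an unadjusted p under 0.05 (background 4.35%), and DESeq2 called 0. For no ZBTB gene were the 5 clones of 1 label all above the 5 of the other, either untreated (background 0.959%) or treated (background 0.825%). The counts called were also 0 in both conditions without KO replicate 3, the clone with ZBTB48 mRNA above the WT level.

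The differences were small as well as uncalled. The median absolute log2 fold change of the ZBTB genes was 0.133 untreated and 0.131 after IFNγ, against 0.168 and 0.178 over all genes tested. As for direction, 20 of 39 had a positive estimate in clones labelled KO and 19 a negative one in untreated cells, and 22 of 38 and 16 of 38 after IFNγ. The 95% confidence interval lay within a 2-fold change either way for 35 of 39 genes untreated and for 35 of 38 treated. Those whose interval reached past 2-fold were ZBTB45, ZBTB7C, ZBTB32 and ZBTB8B untreated, and ZBTB42, ZBTB32 and ZBTB7C treated. For them a 2-fold difference could not be seen or set aside with these clones.

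The largest estimate in untreated cells was that of ZBTB45. It stood at 14.1, 12.3, 11.6, 6.98 and 7.74 CPM in WT clones 1 to 5 and at 17.1, 7.41, 16.7, 23.7 and 12.4 CPM in the clones labelled KO, with overlapping groups and a log2 fold change of 0.55 (SE 0.296, 95% interval -0.10 to 1.20, edgeR adjusted p = 0.980). ZBTB8B followed with -0.36 (SE 0.776), where its counts were 11 to 63 in WT clones and 0 to 53 in clones labelled KO. ZBTB32 had -0.35 (SE 0.525) at 0.214 to 0.746 CPM in WT clones and 0.103 to 0.685 CPM in clones labelled KO. None of these was larger than the spread between clones.

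**Figure D2:**
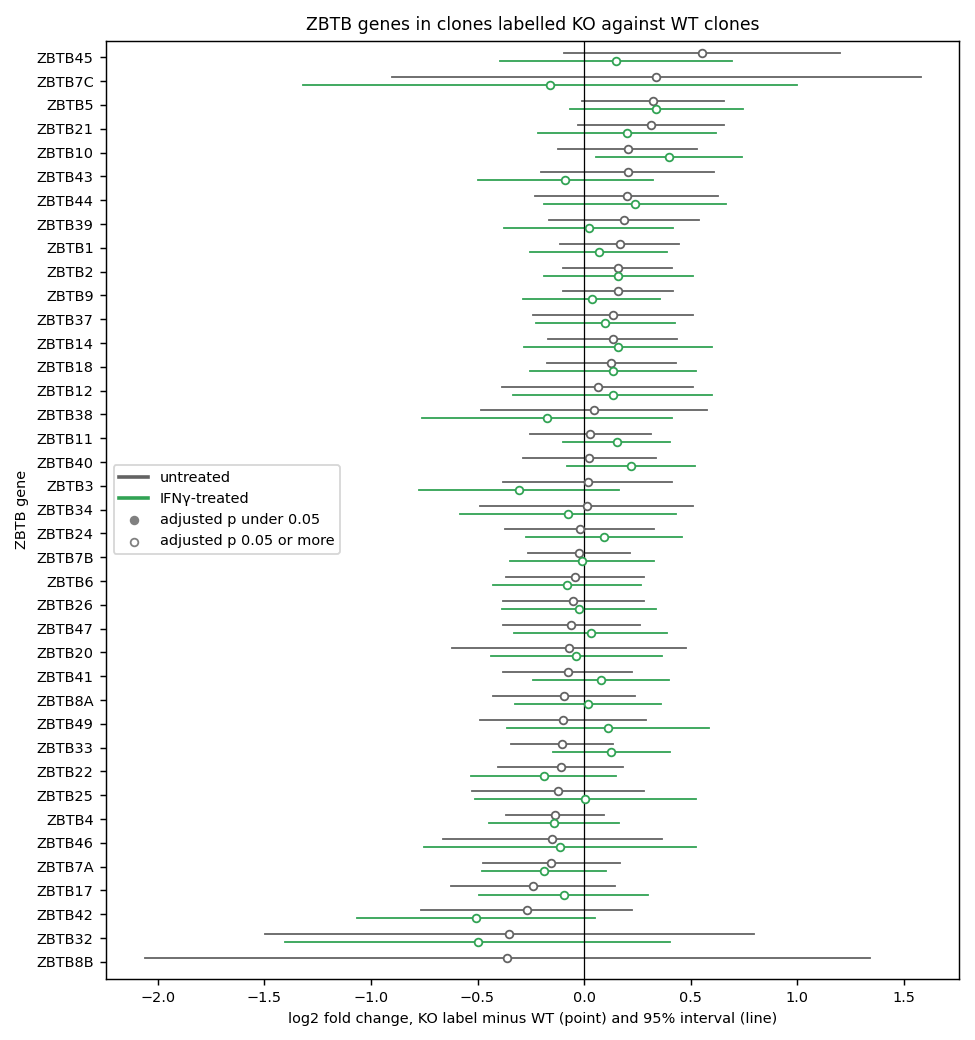
Log2 fold change of each tested ZBTB gene in clones labelled KO relative to WT clones (points) with 95% confidence intervals (lines), untreated in grey and IFNγ-treated in green, 5 clones a group. All points are open, since no adjusted p was under 0.05, and 35 of 39 untreated intervals lie between -1 and 1.

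ZBTB10, which binds the telomeric variant repeat TTGGGG, was the member with the lowest unadjusted p between labels. In IFNγ-treated WT clones 1 to 5 it stood at 72.1, 63.1, 37.8, 65.3 and 58.3 CPM, and in treated clones labelled KO at 73.6, 83.1, 81.7, 71.0 and 77.4 CPM. The groups overlapped only through WT replicate 1, and the log2 fold change was 0.40 (SE 0.157, edgeR adjusted p = 0.996). Untreated, its log2 fold change was 0.20 (SE 0.149, edgeR adjusted p = 0.980). Other large estimates after IFNγ were those of ZBTB42, in which muscle disease mutations are known, with -0.51 (SE 0.256), and ZBTB32 with -0.50 (SE 0.414). ZBTB5 and ZBTB21, picked after their values were seen, had 0.32 (SE 0.152) and 0.31 (SE 0.157) untreated and 0.34 (SE 0.185) and 0.20 (SE 0.191) treated, each with an edgeR adjusted p of 0.980 untreated and 0.996 treated.

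In WT clones, IFNγ raised ZBTB21 and ZBTB2 and lowered ZBTB18 and ZBTB5. These were 4 of 39 ZBTB genes tested, 10.3%, close to the background of 11.3% of all genes at an adjusted p under 0.05 in edgeR's quasi-likelihood test. By direction, 2 were higher (background 6.98%) and 2 lower (background 4.3%). For the same 4 genes the treated and untreated WT clones did not overlap (background 11.1%). None of the 39 was past the study's cut-offs of a fold change over 2 and an adjusted p under 0.01 (background 3%), while 8 had an unadjusted p under 0.05 (background 24.9%) and DESeq2 called 5 of 39 at an adjusted p under 0.05 (background 16.8%). The IFNγ genes IRF1 and GBP1, given for scale, were both called, with log2 fold changes of 4.96 and 8.73. In these bulk samples, a change in RNA per cell and a change in the share of cells that express a gene cannot be told apart.

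The upstream bases of ZBTB21, ZBTB2 and ZBTB5 are shown because these are called genes for which the promoter table and the count table place the outermost start at the same base. They are the 250 bases before that start from RefSeq (GRCh38.p14), 5′ to 3′ on the strand of the gene, and capitals mark matches to CCAAT or TTAGGG on either strand.
ZBTB21 (chr21:42010361-42010610, minus strand): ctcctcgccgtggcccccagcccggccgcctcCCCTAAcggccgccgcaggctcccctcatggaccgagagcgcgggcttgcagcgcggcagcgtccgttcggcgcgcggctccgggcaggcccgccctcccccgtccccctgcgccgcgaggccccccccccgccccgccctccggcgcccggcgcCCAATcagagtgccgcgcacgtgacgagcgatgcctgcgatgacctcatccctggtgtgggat
ZBTB2 (chr6:151391560-151391809, minus strand): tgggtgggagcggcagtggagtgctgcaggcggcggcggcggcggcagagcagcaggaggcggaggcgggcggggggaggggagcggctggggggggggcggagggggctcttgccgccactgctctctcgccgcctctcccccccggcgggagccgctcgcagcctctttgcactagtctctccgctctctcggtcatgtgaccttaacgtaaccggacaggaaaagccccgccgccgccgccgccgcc
ZBTB5 (chr9:37465451-37465700, minus strand): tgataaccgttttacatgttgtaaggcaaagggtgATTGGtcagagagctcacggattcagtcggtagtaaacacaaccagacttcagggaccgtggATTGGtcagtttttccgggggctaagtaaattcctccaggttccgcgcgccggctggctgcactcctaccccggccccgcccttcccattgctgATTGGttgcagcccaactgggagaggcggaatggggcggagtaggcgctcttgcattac
Letters were searched on both strands in the 250 bases before 1 annotated start per gene, available for 34 of the 40 genes. It was the start nearest to the outermost counted base of the gene, with no limit on the distance. For ZBTB18 the window, 244048403 to 244048652, reaches past the first counted base at 244048491 and so lies partly inside the gene. The GAS core TTCNNNGAA was found for 1 of 34 (2.94%, ZBTB14) against 6.71% of such windows over all genes, and an ISRE core, GAAA followed by a second GAAA after any 2 bases, for 1 of 34 (ZBTB33) against 3.05%. Neither core was in these windows of ZBTB21, ZBTB2, ZBTB18 or ZBTB5, but an ISRE core lay at position -237 relative to another annotated start of ZBTB18. Over all annotated starts, 3 of 67 windows of the family held the ISRE core, 4.48% against 3.02% of the windows of all genes. The telomeric repeat TTAGGG was found for 2 of 34 genes (5.88%, ZBTB21 and ZBTB43) against 8.03%, and CCAAT for 15 of 34 (44.1%) against 33.1%. ZBTB21 and ZBTB43 had log2 fold changes between clones labelled KO and WT clones of 0.31 and 0.20 untreated, neither of them called. The windows of the family held a median of 64.6% G and C and 21 CG dinucleotides against 58.0% and 11 over all genes, and ranged from 38.4% (ZBTB14) to 91.6% (ZBTB46). Of the called genes, ZBTB21 had 78.4%, ZBTB18 77.2%, ZBTB2 74.8% and ZBTB5 56.0%. A match is a description of the letters and not a binding site.

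ZBTB21 (chromosome 21, 41986831 to 42010360 on GRCh38), a BTB zinc finger protein that pairs with ZBTB14, showed the largest called response of the family in both labels. In WT clones 1 to 5 it stood at 23.8, 19.8, 20.6, 16.8 and 17.5 CPM untreated and at 52.5, 36.7, 38.3, 39.3 and 28.4 CPM after IFNγ. Every treated clone was above every untreated one. The log2 fold change was 0.97 (1.96-fold, SE 0.157, edgeR adjusted p = 0.00233), and leaving out any WT clone left it called (adjusted p of 0.00437 to 0.0204). Its exons share 4.0% of their length with the antisense gene ZNF295-AS1, which was listed at 0 in all groups.

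ZBTB2 (chromosome 6, 151364115 to 151391559), known as a repressor of CDKN1A in the p53 pathway, was at 40.2, 30.1, 36.3, 29.5 and 29.2 CPM untreated and at 71.9, 47.2, 52.9, 48.0 and 44.2 CPM after IFNγ in WT clones. All treated clones were above all untreated ones, with a log2 fold change of 0.66 (SE 0.15, edgeR adjusted p = 0.0160). Without WT replicate 2 or 4 the fold change was 0.66 and 0.67, but the adjusted p rose to 0.0633 and 0.0609. The opposite-strand gene LOC124901232, which overlaps 7.1% of its exon length, averaged 3.19 CPM untreated and 3.47 CPM treated in WT clones and was not called.

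ZBTB18 (RP58; chromosome 1, 244048491 to 244057476), a repressor needed in neuronal differentiation, was lower after IFNγ. It went from 22.2, 21.8, 25.3, 29.8 and 22.3 CPM in untreated WT clones to 14.8, 14.4, 18.8, 16.7 and 16.1 CPM, and the groups did not overlap. Its log2 fold change was -0.60 (SE 0.132, edgeR adjusted p = 0.0134). Without WT replicate 1 it was -0.59 with an adjusted p of 0.0576.

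ZBTB5 (chromosome 9, 37438102 to 37465450), another repressor of CDKN1A, went from 32.8, 30.2, 32.5, 31.5 and 32.4 CPM to 24.3, 23.4, 24.7, 26.5 and 22.9 CPM in WT clones. This was the smallest of the 4 called changes, -0.40 on the log2 scale (SE 0.0887, edgeR adjusted p = 0.0140), and the one with the narrowest groups. Without WT replicate 1, 2 or 3 its adjusted p was 0.0712, 0.0558 and 0.0536, and it was 0.0724 without the filter on low counts and 0.137 in a fit of all 20 libraries together. The opposite-strand gene GRHPR covers 23.3% of its exon length and averaged 129 CPM untreated and 115 CPM treated (log2 fold change -0.17, edgeR adjusted p = 0.572), and since the strand setting of the counting is not given in the sources used here, their reads may not be fully separated.

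Treated and untreated libraries of a WT clone resembled each other, and a fit with the clone as a block (a paired fit) called 22 of 39 ZBTB genes in WT clones, or 56.4% against a background of 47%. Of these, 12 were higher (background 22.9%) and 10 lower (background 24.1%). ZBTB10 was among them, with a log2 fold change of 0.34 (blocked adjusted p = 0.000489) against 0.35 and an adjusted p of 0.269 without the block. So was ZBTB38, higher in 5 of 5 WT clones, from 79.8 to 154 CPM untreated to 120 to 265 CPM treated, with a blocked log2 fold change of 0.57 (blocked adjusted p = 6.85e-05) and an adjusted p of 0.129 without the block. ZBTB43 was at 0.57 (blocked adjusted p = 0.000101), and ZBTB12, lower in 5 of 5 clones, at -0.47 (blocked adjusted p = 4.83e-05). ZBTB4 was lower in 5 of 5 clones at -0.26 (blocked adjusted p = 0.00104), whereas the third methylated CpG binder ZBTB33 was at -0.08 (blocked adjusted p = 0.395). These 3 proteins with a shared ligand thus had estimates of different sign in the same clones.

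Higher in WT clones with the block were also ZBTB17 at 0.30 (blocked adjusted p = 0.00137), ZBTB9 at 0.28 (0.00776) and ZBTB7A (LRF), known for silencing fetal globin, at 0.20 (0.0108). ZBTB7C at 0.79, ZBTB42 at 0.26, ZBTB39 at 0.17 and ZBTB22 at 0.16 completed the 12, with blocked adjusted p of 0.00696 to 0.0466. Lower with the block were ZBTB46, a marker of classical dendritic cells, at -0.53 (blocked adjusted p = 0.000483), ZBTB45 at -0.43, ZBTB25 at -0.43, ZBTB34 at -0.30 and ZBTB1 at -0.27, and ZBTB8B, at -2.02 from few counts (0.00947), was the tenth. ZBTB46 went from 9.63, 8.38, 9.22, 8.84 and 16.0 CPM in WT clones 1 to 5 to 6.37, 6.65, 5.82, 6.45 and 11.1 CPM, a fall in each clone with ranges that overlapped through replicate 5. The remaining 17 tested genes, among them ZBTB24, which is mutated in the ICF immunodeficiency syndrome, and ZBTB20, were not called in WT clones by either fit.

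Counted clone by clone, ZBTB21, ZBTB2, ZBTB10 and ZBTB11 were higher in the treated library of every clone, 5 of 5 under either label. ZBTB18, ZBTB5, ZBTB4, ZBTB45, ZBTB46, ZBTB34 and ZBTB1 were lower in all 5 of each. For these genes the counts were the same with treated KO replicates 4 and 5 exchanged. With that exchange ZBTB17, ZBTB38, ZBTB26 and ZBTB43 were also higher, and ZBTB25 lower, in all 5 of each. The share of all genes that moved the same way in every clone was not counted, so these counts have no background beside them. Some falls were very small: ZBTB1 went from 44.4 to 44.3 CPM in KO replicate 2, and ZBTB46 was at 8.67 CPM in both libraries labelled KO replicate 5. The pairing of that clone is in doubt, however, and in treated KO replicate 4 ZBTB46 stood at 5.70 CPM. Paired by clone name, the log2 difference of ZBTB21 within a clone was 0.70 to 1.22 in WT clones and 0.73 to 0.97 in clones labelled KO. For ZBTB45 it was -0.64 to -0.19 in WT clones and -1.36 to -0.46 in clones labelled KO, where the median clone of the untreated group stood at 16.7 CPM and that of the treated group at 9.01 CPM. This larger estimate in clones labelled KO (-0.84, SE 0.291, edgeR adjusted p = 0.105) did not pass the test without the block.

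**Figure D3:**
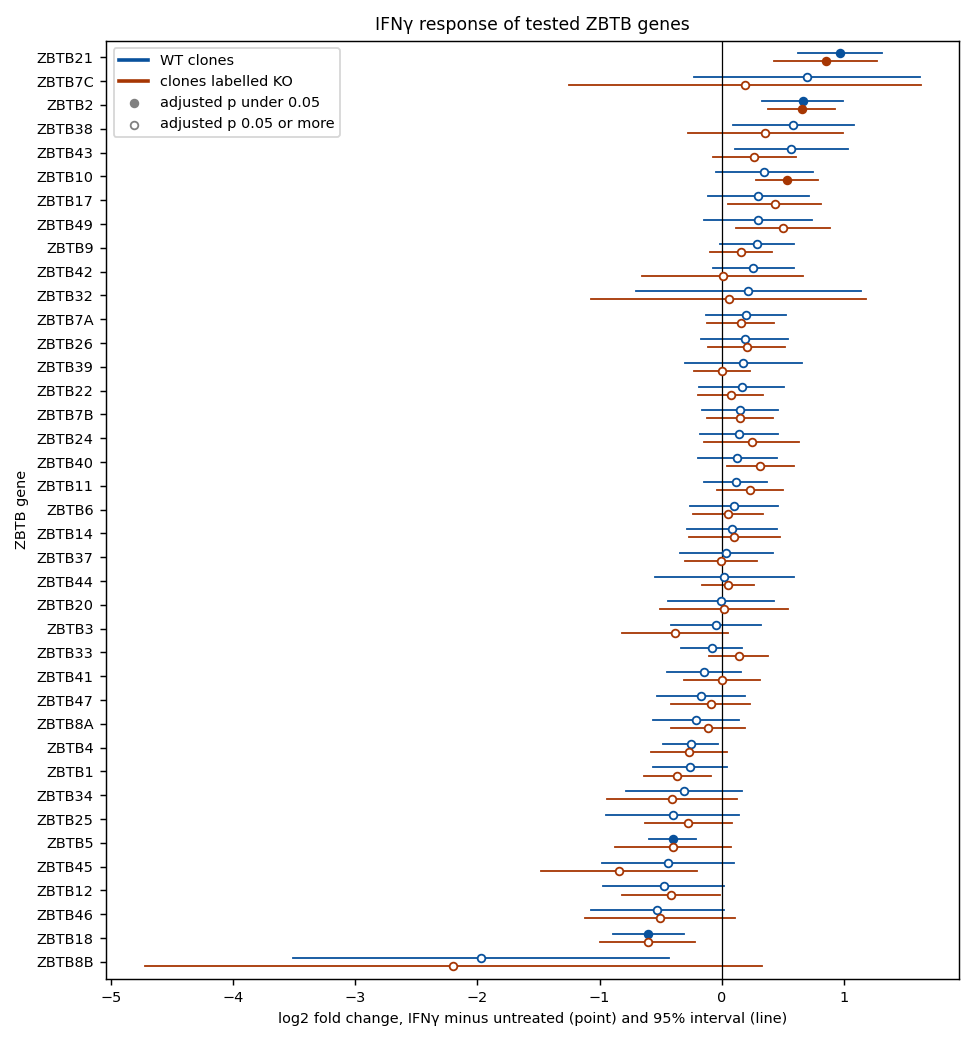
Log2 fold change after IFNγ of each tested ZBTB gene (points) with 95% confidence intervals (lines), WT clones in blue and clones labelled KO in brown, 5 clones a group, in the fits without the clone as a block. Filled points have an adjusted p under 0.05: ZBTB21, ZBTB2, ZBTB18 and ZBTB5 in WT clones, and ZBTB21, ZBTB2 and ZBTB10 in clones labelled KO.

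In the clones labelled KO, IFNγ raised ZBTB21, ZBTB2 and ZBTB10. These were 3 of 39 ZBTB genes, 7.69% against a background of 7.88% called in either direction, 5.41% higher and 2.47% lower, and none of them was past the study's cut-offs (background 1.96%). Treated and untreated clones did not overlap for these 3 and for ZBTB49 (background 9.46%). ZBTB49 lay at 2.92 to 3.19 CPM untreated and at 3.65 to 5.11 CPM treated, with a log2 fold change of 0.50 that was not called without the block (edgeR adjusted p = 0.108), but was called by DESeq2 and with the clone as a block once treated KO replicates 4 and 5 were exchanged. At an unadjusted p under 0.05 there were 10 of 39 (background 23.5%), 4 of them lower (background 10.4%). DESeq2 called 6 of 39 (background 14.4%), which were ZBTB21, ZBTB2, ZBTB10 and ZBTB49 higher and ZBTB18 and ZBTB45 lower, where edgeR made 0 lower calls.

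ZBTB21 stood at 28.6, 17.4, 28.2, 24.1 and 24.4 CPM in untreated clones labelled KO and at 56.2, 29.0, 48.7, 42.4 and 45.6 CPM after IFNγ (log2 fold change 0.85, SE 0.191, edgeR adjusted p = 0.0208). ZBTB2 went from 35.7, 36.4, 37.8, 40.2 and 35.1 CPM to 60.7, 44.7, 72.1, 58.7 and 56.0 CPM (0.65 on the log2 scale, SE 0.125, edgeR adjusted p = 0.010). Both genes were lowest after treatment in KO replicate 2, and all treated libraries were above all untreated ones.

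ZBTB10 (chromosome 8, 80485593 to 80526265) went from 51.6, 66.3, 46.4, 48.8 and 53.8 CPM to 73.6, 83.1, 81.7, 71.0 and 77.4 CPM (0.53 on the log2 scale, SE 0.116, edgeR adjusted p = 0.0182). ZBTB18 stood at 23.2, 33.9, 24.5, 25.1 and 26.7 CPM untreated and at 14.8, 25.1, 15.0, 18.5 and 14.6 CPM treated. Only treated KO replicate 2 reached into the untreated range, and the log2 fold change was -0.60 (SE 0.177, edgeR adjusted p = 0.0617). Its blocked adjusted p was 0.00659 by clone label, and 0.000447 with treated KO replicates 4 and 5 exchanged, whose labelled pairing is in doubt. ZBTB5 had -0.40 (SE 0.217, edgeR adjusted p = 0.303). Its blocked adjusted p was 0.0274 by clone label and 0.00266 with the exchange.

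The 3 calls in the clones labelled KO were lost when 1 of several clones was left out. Without KO replicate 1, 3, 4 or 5 the number called was 0, and without KO replicate 2 it was 5. Without KO replicate 3, the clone with ZBTB48 mRNA above the WT level, the log2 fold changes were 0.88 for ZBTB21, 0.59 for ZBTB2 and 0.47 for ZBTB10, with adjusted p of 0.0825, 0.0531 and 0.0844. The fraction of all genes called fell too, to between 2.65% and 3.54% in the 4 fits with 0 ZBTB genes called. With the clone as a block 8 of 39 were called (20.5% against a background of 21%), 4 higher (background 11.1%) and 4 lower (background 9.95%). The labelled pairs of KO replicates 4 and 5 are in doubt, since their treated and untreated libraries hardly correlated (r = 0.003 and 0.07), while untreated replicate 4 correlated with treated replicate 5 at 0.68 and untreated replicate 5 with treated replicate 4 at 0.77. With these pairs exchanged the block gave 18 of 39 (46.2% against 36.7%), 8 higher (background 17.9%) and 10 lower (background 18.8%).

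**Figure D4:**
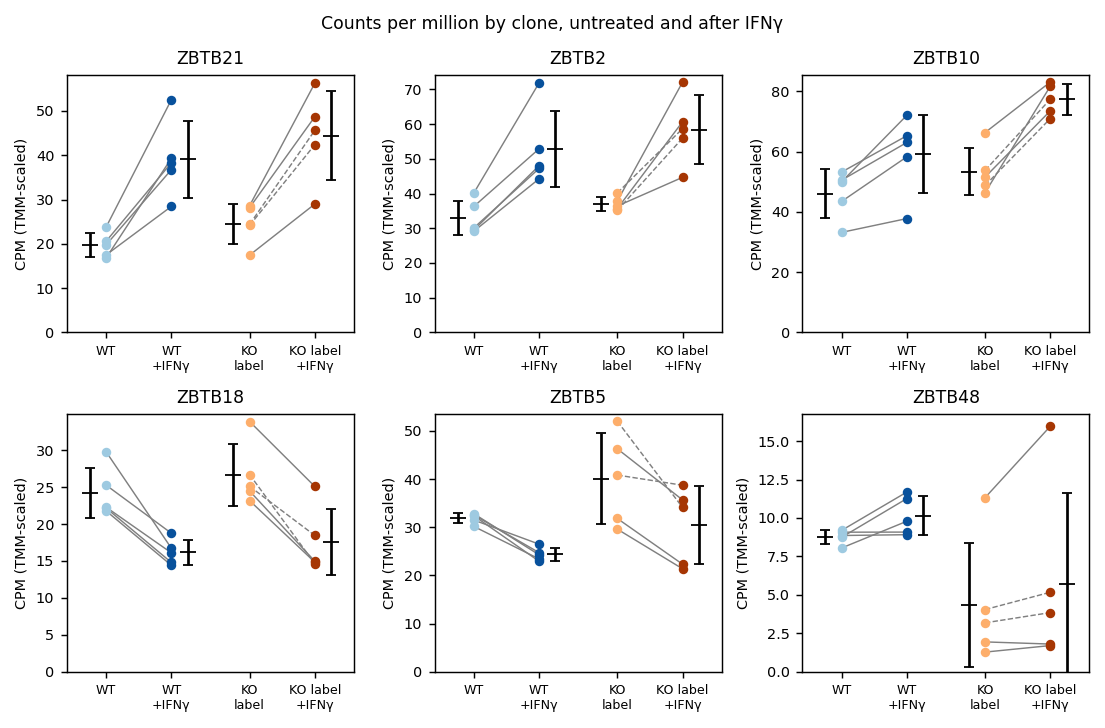
Level in CPM (TMM-scaled) of the 5 called ZBTB genes and of ZBTB48 by clone, untreated and after IFNγ. Points are libraries, lines join libraries of the same clone name (dashed for KO replicates 4 and 5, whose pairing is in doubt), and black bars are the mean ± SD of 5 clones; ZBTB21 is higher in every treated library than in every untreated library of its label, and ZBTB48 is highest in KO replicate 3.

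The IFNγ responses were not shown to differ between the labels for any ZBTB gene. In the interaction test over all 20 libraries 0 of 39 were called (background 0%), 0 had an unadjusted p under 0.05 (background 0.409%), and DESeq2 called 0. The largest estimates, KO label minus WT, were -0.49 for ZBTB7C (SE 0.813), -0.39 for ZBTB45 (SE 0.393) and -0.32 for ZBTB3 (SE 0.235). ZBTB10, called in the clones labelled KO and not in WT clones without the block, differed by 0.20 (95% interval -0.26 to 0.66). ZBTB21 differed by -0.10 (95% interval -0.62 to 0.41), ZBTB2 by 0.01, ZBTB18 by 0.01 and ZBTB5 by 0.02. The interval lay within a 2-fold difference for 34 of 39 genes and reached past it for ZBTB7C, ZBTB45, ZBTB38, ZBTB8B and ZBTB32. These SE and intervals come from the fit without the clone as a block. That fit takes the treated and untreated libraries of a clone as independent, so spread between clones enters their width. Intervals with the block are not given here, and with it 0 of 39 were called as well (background 0%).

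ZBTB8B had the largest estimated fold change of the family after IFNγ in both labels, from few reads. It had 20, 11, 29, 63 and 25 counts in untreated WT clones and 3, 8, 18, 12 and 0 after IFNγ, with a log2 fold change of -1.97 (SE 0.702, edgeR adjusted p = 0.10). In clones labelled KO it had 53, 0, 17, 27 and 12 counts untreated and 21, 2, 3, 0 and 0 treated (-2.20 on the log2 scale, SE 1.15, edgeR adjusted p = 0.281). DESeq2 called it in WT clones, as did edgeR with the clone as a block (blocked adjusted p = 0.00947), and with 0 or few counts in several libraries its fold change is uncertain.

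Several ZBTB genes lie next to each other. ZBTB25 and ZBTB1 on chromosome 14 overlap on opposite strands and share 693 exon bases, ZBTB6 and ZBTB26 on chromosome 9 lie 2.24 kb apart, and ZBTB43 and ZBTB34 on the same chromosome 22.4 kb apart. In WT clones after IFNγ, ZBTB25 and ZBTB1 had log2 fold changes of -0.40 and -0.26, and ZBTB6 and ZBTB26 0.10 and 0.19. ZBTB43 and ZBTB34 had 0.57 and -0.31, of opposite sign. None of these 6 was called without the clone as a block, and with it ZBTB25, ZBTB1, ZBTB43 and ZBTB34 were called in WT clones, in the directions given.

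BTB zinc finger genes with other symbols were counted in the same way. Of 8 tested (BCL6, BCL6B, HIC1, HIC2, PATZ1, GZF1, MYNN and ZNF131), 1 was higher and 0 lower after IFNγ in each label, ZNF131 in both, with log2 fold changes of 0.48 in WT clones (edgeR adjusted p = 0.0281) and 0.52 in clones labelled KO (edgeR adjusted p = 0.0131). The background was 6.98% higher and 4.3% lower in WT clones, and 5.41% higher and 2.47% lower in clones labelled KO. With the clone as a block 5 of the 8 were higher in WT clones (background 22.9%) and 3 in clones labelled KO (background 11.1%), with 0 lower in both. Their median log2 fold change was 0.23 in WT clones and 0.33 in clones labelled KO, beside 0.10 and 0.05 for the ZBTB genes and -0.03 and -0.03 for all genes tested. BCL6, the germinal centre repressor, had 0.33 in both and was not called without the block. Of 10 genes for co-repressors and other partners of BTB domains, 1 was lower and 0 higher in each label, BCORL1 in both, at -0.68 in WT clones (edgeR adjusted p = 0.00312) and -0.64 in clones labelled KO (edgeR adjusted p = 0.0324). The same background applies, and with lists this short 1 call says little about a list as a whole. With the block 3 of these 10 were higher (background 22.9%) and 3 lower (background 24.1%) in WT clones, and 0 higher (background 11.1%) and 1 lower (background 9.95%) in clones labelled KO. Between clones labelled KO and WT clones, 0 of the 8 and 0 of the 10 were called in either condition (background 0.0308% untreated and 0.0206% treated).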

How the data were processed

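Polyadenylated RNA of 20 U2OS libraries was sequenced by the authors from stranded libraries, and per the labels' processing notes STAR 2.7.9a, featureCounts 2.4.0 and DESeq2 1.40.1 were named with GRCh38. The authors deposited raw read counts per gene, not normalized, for all libraries in 1 table with exon lengths and coordinates. The strand setting of the counting is not given in the sources used here. Total counts per library were 46652288 to 72952859.

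Groups came from the genotype, treatment and clone labels. For each pair of groups, edgeR 4.0.16 (R 4.3.3) was run on the 10 libraries concerned: filterByExpr, TMM scaling and the robust quasi-likelihood test, with Benjamini-Hochberg adjustment over all genes tested, two-sided. The interaction used all 20 libraries. A gene was called at an adjusted p under 0.05. The study's methods name DESeq2, which was run as an alternative (version 1.42.0). Other alternatives were size factors of the RLE type, library totals, no filter, all 20 libraries together, the clone as a block, and leaving out each clone. Between labels the block was the replicate number, since no clone carries both labels. Levels per length are TMM-scaled CPM divided by exon length in kb, and log2 spreads used an offset of 0.1. The test script was tested on simulated data.

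Members and gene lists were chosen with earlier results of these data known. Values are given for every called member, for the 3 largest fold changes where under 3 were called, for the 5 highest and 5 lowest levels, for ZBTB48 and ZBTB10, and for the methylated CpG binders. Treated and untreated libraries share clone names, and correlations of their deviations from the group means were 0.71 to 0.85 for the 5 WT clones, 0.72, 0.82 and 0.64 for KO replicates 1 to 3, and 0.003 and 0.07 for KO replicates 4 and 5. WT and KO clones of the same number are different clones, and p-values of the fits without the block measure the spread between clones of a label. In the blocked fits of an IFNγ response, they measure how much the response itself varied between clones.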

Additional observations from a re-analysis of the deposited data

Results flagged for a closer look

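In groups of 5 libraries, a library was picked out when its gap to the nearest other library exceeded 0.71 of the range of the group (Dixon's criterion). Over 23 genes and 92 groups, 6 libraries were picked out, and chance alone picks about 1 in 20 groups, or 4.6. ZBTB48 stood at 11.3 CPM in KO replicate 3 and at 16.0 CPM in the IFNγ-treated library of the same clone, where the other clones labelled KO lay at 1.27 to 4.04 CPM and 1.70 to 5.17 CPM. ZBTB7C stood at 3.78 CPM in IFNγ-treated KO replicate 5 and at 0.442 to 1.25 CPM in the other treated clones labelled KO. ZBTB8B stood at 0.337 CPM in IFNγ-treated KO replicate 1 against 0 to 0.0574 CPM. ZBTB16 stood at 0.0405 CPM in WT replicate 3 and at 0.145 CPM in IFNγ-treated KO replicate 5, from 2 and 8 counts, and at 0 in the other libraries of these groups. No gene of the family moved up in all clones of 1 label and down in all clones of the other.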

How the results depend on the processing

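The calls of ZBTB genes between clones labelled KO and WT clones and in the interaction were 0 under every alternative run. In the IFNγ responses they changed. The WT response (2 higher, 2 lower) gave 12 higher and 10 lower with the clone as a replicate block, 0 and 0 at the study's cut-offs, 1 lower without the filter on low counts or with all 20 libraries together (ZBTB5 was lost), and 1 to 2 higher and 0 to 2 lower without 1 WT clone. The response of clones labelled KO (3 higher, 0 lower) gave 4 higher and 4 lower with the replicate block, 8 higher and 10 lower with the block and treated replicates 4 and 5 exchanged, 0 higher at the study's cut-offs, 1 lower with library totals or all 20 libraries together, 2 lower with DESeq2 with or without shrinkage, and 0 to 3 higher and 0 to 2 lower without 1 clone. Between labels the block was the replicate number, which joins different clones, so its 0 calls there add nothing to the result. In the interaction the block was the clone, and the calls of ZBTB genes stayed at 0. For ZBTB8B the untreated log2 fold change between labels turned from -0.36 to 0.05454 without WT replicate 4, was -1.05 without KO replicate 1, and was not called. The fold changes of the other single genes recomputed kept their sign under all alternatives. Medians over the ZBTB genes did not always do so. Over the alternatives they lay at -0.045 to 0.039 between labels untreated, and at -0.030 to 0.031 in the interaction. Library totals moved the median of all genes in the WT response from -0.03 to -0.10 on the log2 scale. The cause of these changes was not tested. Depth limits ZBTB8B, ZBTB32 and ZBTB16, which had 63, 47 and 8 counts at most.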
